A study of Homo sapiens with 42 samples.

Results

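The collagen genes are described here in 2 human lung cancer cell lines over 24 h after a single dose of ionizing radiation. They were taken as every entry of the value table whose single gene symbol has the form COL, number, A, number. Where a gene had more than 1 entry, that of the highest average signal was used. This gave 43 of the 18404 genes tested, from 27 collagen types. COL11A2 had a second entry, and 1 collagen entry with several gene symbols was not used. COL17A1 was not analysed here.

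The lines were H460, a large-cell lung carcinoma line that the study calls radiosensitive, and H1299, a lung cancer line that it calls radioresistant. Growing cells of both lines were given 2 Gy of gamma radiation from a linear accelerator, and total RNA was put on 1 array per sample. Each line had 6 arrays labelled 0 h, read here as unirradiated, and 3 arrays at each of 2, 4, 8, 12 and 24 h. That made 42 arrays in all, with 21 per line. Arrays of one line and time carry the words biological replicate without more on what was separate, so the errors measure the spread between arrays, which may be technical. Each line is a single cell line, and a difference between them is a difference between these 2 lines. The labels name no unirradiated array later than 0 h, and so the effect of radiation and that of hours in culture cannot be told apart. Unirradiated control cells are mentioned in the protocol, without the arrays they went to, so whether any 0 h array held them is not known.

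Collagens are secreted or membrane proteins whose chains wind around each other into a stiff helix and assemble outside the cell. The fibrillar types build the ropes of connective tissue, type IV forms the mesh of basement membranes under epithelia, and the FACIT types sit on the surface of fibrils. In the lung, epithelial cells rest on type IV collagen, and fibroblasts make most of the fibrillar collagen. Of the 43 genes, 11 encode fibrillar chains, 10 FACIT or related chains, 6 type IV chains of the basement membrane network, 5 type VI chains of beaded filaments, 3 short chain network collagens, 3 transmembrane collagens, 2 multiplexins and 1 the anchoring fibril collagen VII, and 2 belong to none of these.

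The 6 type IV genes lie as 3 head-to-head pairs on the chromosomes. In the RefSeq annotation of GRCh38.p14 the starts of COL4A1 and COL4A2 are 127 bases apart on chromosome 13, those of COL4A5 and COL4A6 are 380 bases apart on chromosome X and those of COL4A3 and COL4A4 are 419 bases apart on chromosome 2. Windows of 250 bases before to 50 bases after the start were at hand for 31 members, and the windows of a pair overlap by 226 bases for COL4A1 and COL4A2, 121 bases for COL4A5 and COL4A6 and 82 bases for COL4A3 and COL4A4. The windows of COL4A2 (chr13:110307034-110307333, plus strand), COL4A5 (chrX:108439588-108439887, plus strand) and COL4A6 (chrX:108439409-108439708, minus strand) are shown because these are the type IV pairs with the larger differences between the lines below. Capitals mark CCAAT and GGGCGG, read on either strand. TATAAA was searched too and was in none of the 3 windows.
COL4A2: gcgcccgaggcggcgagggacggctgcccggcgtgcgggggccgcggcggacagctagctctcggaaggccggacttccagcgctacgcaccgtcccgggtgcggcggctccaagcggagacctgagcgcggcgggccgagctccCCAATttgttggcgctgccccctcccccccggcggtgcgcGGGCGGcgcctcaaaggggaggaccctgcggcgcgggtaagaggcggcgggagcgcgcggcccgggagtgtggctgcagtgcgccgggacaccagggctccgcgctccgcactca
COL4A5: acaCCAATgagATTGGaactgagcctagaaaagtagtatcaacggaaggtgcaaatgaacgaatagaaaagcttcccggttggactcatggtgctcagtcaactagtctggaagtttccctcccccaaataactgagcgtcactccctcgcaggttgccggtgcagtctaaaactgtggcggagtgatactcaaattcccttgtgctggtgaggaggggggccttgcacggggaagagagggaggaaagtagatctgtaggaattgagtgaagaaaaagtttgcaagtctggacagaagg
COL4A6: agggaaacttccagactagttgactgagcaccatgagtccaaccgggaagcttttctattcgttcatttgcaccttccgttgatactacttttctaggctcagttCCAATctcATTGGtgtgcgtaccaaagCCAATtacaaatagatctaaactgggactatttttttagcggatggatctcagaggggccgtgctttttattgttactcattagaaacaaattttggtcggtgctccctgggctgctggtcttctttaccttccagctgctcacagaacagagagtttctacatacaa

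CCAAT was found in 1 place in the COL4A2 window, in 2 places in the COL4A5 window and in 3 places in the COL4A6 window, and in 34.6% of all 35116 RefSeq windows. The 2 places in the COL4A5 window lie in the bases that the pair shares, and are 2 of the 3 in the COL4A6 window. GGGCGG was in 1 place in the COL4A2 window and in neither window of the COL4A5 and COL4A6 pair, against 45.0% of all windows. The pairs also differed in base composition, with 77.7% G or C in the COL4A2 window and 76.7% in that of COL4A1, against 49.3% for COL4A5, 43.7% for COL4A6 and a median of 58.7% over all windows. Among the 31 members with a window, 11 held CCAAT, 21 held GGGCGG and 6 held TATAAA (11.5% of all windows). A match is a description of these letters, not a site or a cause, and a lack of one says only that the letters are not in this window.

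The values are log2 intensities as deposited, between 1.45 and 14.2, and came without detection calls. A low value therefore does not show that a gene was off. The arrays differed in width. The interquartile range of an array (the spread of its log2 values over all genes) averaged, in H460, 3.34 at 0 h, 2.84 at 2 h, 3.35 at 4 h, 3.64 at 8 h, 3.67 at 12 h and 3.64 at 24 h. The group means of H1299 lay between 3.53 and 3.82. Replicate 2 at 0 h in H1299 was narrow for its group (3.24) and replicate 6 at 0 h in H460 was wide (3.63). The mean level of the 35 members that are not among the 8 named below for their level moved with this width: it was 5.67 to 5.84 on the 3 narrow H460 arrays at 2 h and 4.97 to 5.15 on the 9 wide H460 arrays at 8, 12 and 24 h. The fits were therefore also run with array width as a covariate.

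**Figure D1:**
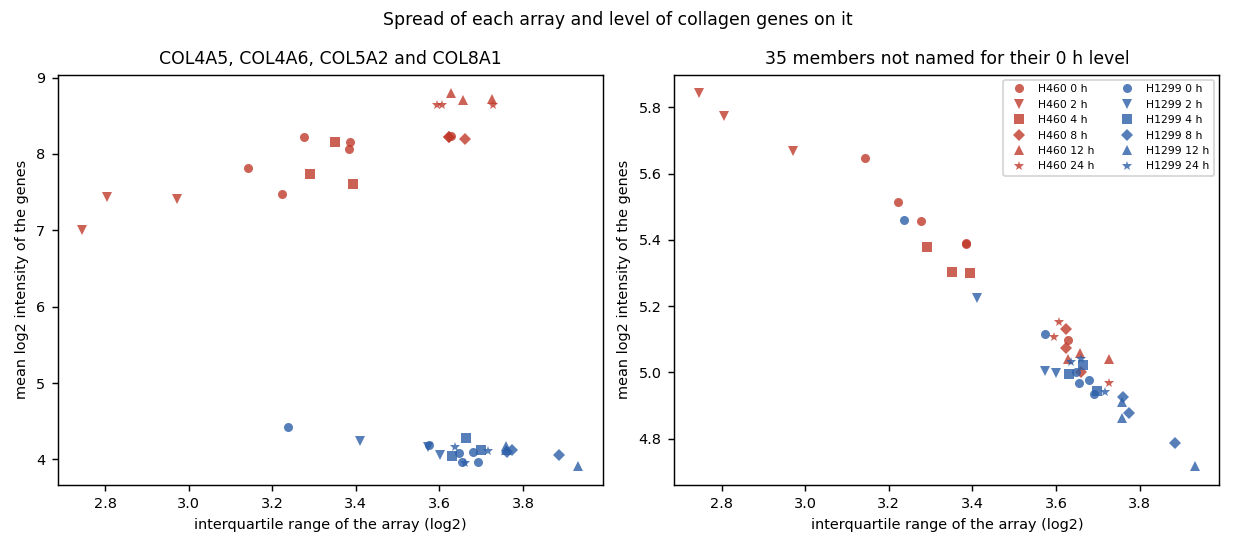
Mean log2 intensity of 4 collagen genes (left panel) and of 35 other collagen genes (right panel) against the interquartile range of each array, 1 point per array, with colour for the line and shape for the hours after 2 Gy. On the right, the arrays of both lines lie along one falling band, with the H460 arrays at 2 h at its narrow end. On the left, the lines are far apart at every width. The 4 genes (COL5A2, COL4A6, COL8A1 and COL4A5) have the widest line differences at 0 h. The 35 leave these out, and also COL12A1, COL4A2, COL4A1 and COL7A1, which differ by at least 1 (log2) at 0 h. How far apart the lines lie in each panel thus follows in part from this choice of genes.

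The labelled carcinoma origin was checked against keratins, the filaments of epithelial cells, and against genes of other cell types. KRT8 was at 12.18 in H460 and 10.81 in H1299 and KRT18 at 12.18 in H460 and 12.12 in H1299 (means at 0 h, n = 6 each). KRT19 was at 11.36 in H460 and 5.23 in H1299, and the epithelial adhesion genes EPCAM (3.97 in H460, 3.67 in H1299) and CDH1 (3.78 in H460, 3.71 in H1299) lay in the lower part of the scale in both lines. Of 4 mesenchymal genes 1 was higher and 3 were lower in H460. FN1, which encodes fibronectin, averaged 12.03 in H460 and 7.26 in H1299, whereas CDH2, which encodes N-cadherin, averaged 5.18 in H460 and 8.97 in H1299. VIM averaged 11.25 in H460 and 11.94 in H1299, and the transcription factor gene ZEB1 5.58 in H460 and 6.85 in H1299. The mean of 7 fibroblast genes other than collagens lay between 3.60 and 4.03 on H460 arrays and between 3.21 and 3.52 on H1299 arrays. Its DCN, the proteoglycan decorin, averaged 2.97 in H460 and 2.92 in H1299. LUM and PDGFRB of the same list were higher in H460 at 0 h. With array width as a covariate they differed by 1.30 and 1.17 (log2, limma, adjusted p = 4.3e-07 and 2.3e-07). The other fibroblast genes of the list were not called in that fit. The mean of 4 endothelial genes lay at 3.50 to 4.28 in H460 and 3.37 to 4.01 in H1299, and that of 4 leukocyte genes at 5.14 to 5.51 in H460 and 4.62 to 5.19 in H1299. Among the leukocyte genes PTPRC was at 2.68 in H460 and 2.66 in H1299 and CD3E at 3.85 in H460 and 3.58 in H1299, and of the monocyte and macrophage genes CD14 was at 5.93 in H460 and 4.77 in H1299 and CD68 at 8.78 in H460 and 8.999 in H1299.

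The comparison at 0 h asks how the unirradiated lines differ in collagen messages. In the values as deposited most were higher in H460, but with array width as a covariate only 13 were called higher. The differences were widest for 4: COL5A2, COL4A6, COL8A1 and COL4A5. Of the 43 members, 27 were higher in H460 and 3 were lower (limma, adjusted p under 0.05), which makes 69.8% called, against 55.1% of all genes. Higher calls made up 62.8% of members against 26.0% of all genes, and lower calls 6.98% against 29.1%. The median difference, H460 minus H1299, was 0.39 over the members and 0.07 over all genes (log2). When array width entered as a covariate 17 members were called, 13 higher and 4 lower, and the median was 0.10. The share of all genes called under this covariate is given only for the 24 h change in H460. In every other comparison a lower count under the covariate is not set against that of all genes. These are bulk cultures, so a smaller share of cells making a message and less of it per cell cannot be told apart.

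**Figure D2:**
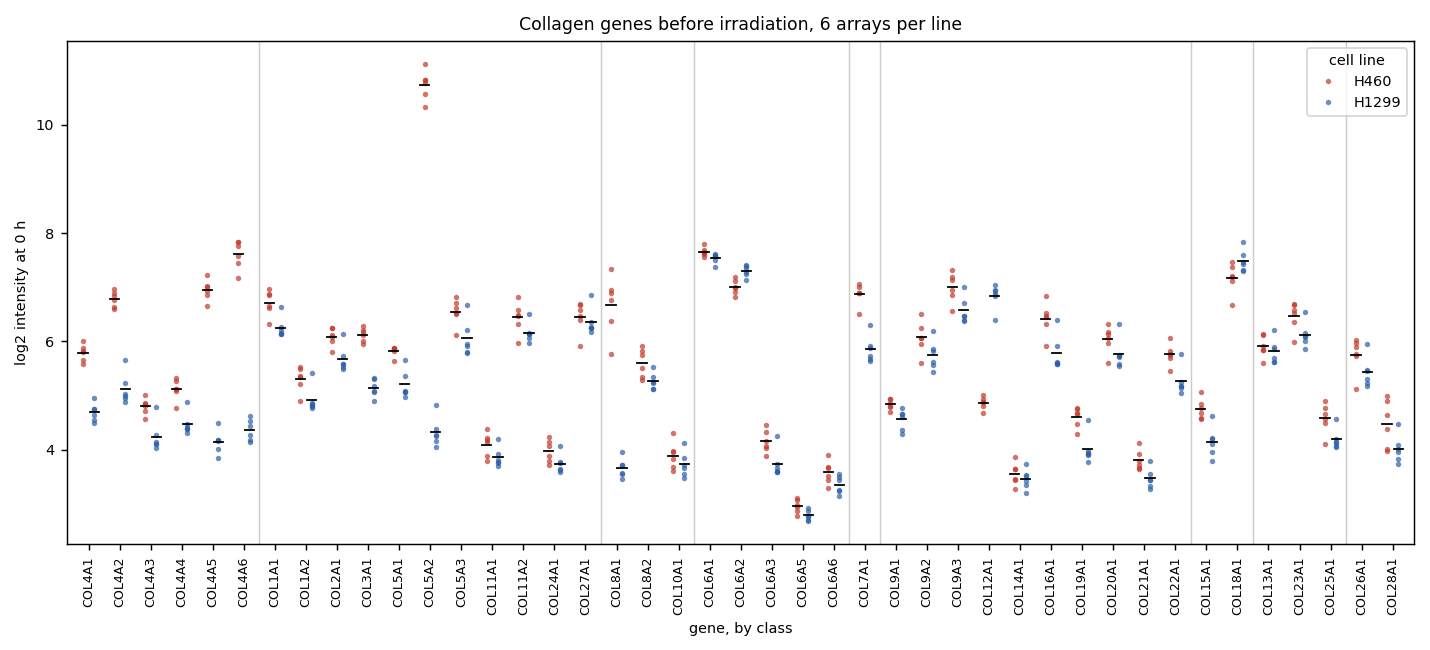
Log2 intensity at 0 h of each of the 43 collagen genes, by class, with 6 arrays of H460 (red) left of 6 arrays of H1299 (blue) and a black bar at the mean. COL5A2 lies above 10 in H460 and below 5 in H1299; for most other genes the points of the lines overlap or lie close. Levels of different genes come from different probes and are not comparable with each other.

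COL5A2 encodes a chain of collagen V, which starts and regulates collagen I fibrils. Its log2 intensity at 0 h in H460 was 10.33 at the lowest, 10.80 at the median and 11.13 at the highest, against 4.05 at the lowest, 4.26 at the median and 4.82 at the highest in H1299. Every H460 array was above every H1299 array. The difference was 6.42 ± 0.13 (SE, 85.8-fold, adjusted p = 6.7e-19, limma), the largest among the members. The genes of its partner chains differed less: COL5A1, the main chain of collagen V, was at 5.63 at the lowest, 5.86 at the median and 5.88 at the highest in H460 and 4.97 at the lowest, 5.08 at the median and 5.66 at the highest in H1299 (difference 0.62 ± 0.12, adjusted p = 0.000126), and COL5A3 differed by 0.49 ± 0.14 (adjusted p = 0.00705). COL5A3 was not called with array width as a covariate (0.10, adjusted p = 0.434).

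All 6 type IV genes were higher in H460. COL4A5 and COL4A6 encode chains of basement membranes, and loss of COL4A5 causes Alport syndrome. COL4A6 at 0 h was 7.18 at the lowest, 7.68 at the median and 7.84 at the highest in H460, against 4.13 at the lowest, 4.35 at the median and 4.61 at the highest in H1299. COL4A5 was 6.66 at the lowest, 6.97 at the median and 7.24 at the highest in H460, against 3.84 at the lowest, 4.17 at the median and 4.50 at the highest in H1299. The lowest H460 array of each gene was above the highest H1299 array. The differences were 3.25 ± 0.12 for COL4A6 (adjusted p = 1.21e-14) and 2.81 ± 0.12 for COL4A5 (adjusted p = 5.71e-14), that is 9.53-fold and 6.99-fold.

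COL4A1 and COL4A2 encode the chains found in nearly all basement membranes. COL4A2 was 6.61 at the lowest, 6.81 at the median and 6.96 at the highest in H460, against 4.89 at the lowest, 5.01 at the median and 5.65 at the highest in H1299. COL4A1 was 5.58 at the lowest, 5.82 at the median and 5.999 at the highest in H460, against 4.49 at the lowest, 4.69 at the median and 4.95 at the highest in H1299. Both were apart without overlap, by 1.66 ± 0.12 (adjusted p = 3.62e-10) and 1.10 ± 0.11 (adjusted p = 2.42e-08). COL4A3 and COL4A4, which form the network of the kidney glomerulus and the lung alveolus together with COL4A5, differed less, by 0.56 ± 0.12 and 0.64 ± 0.12 (adjusted p = 0.000735 and 0.00011), and their lines overlapped through replicate 2 of H1299. With array width as a covariate all 6 kept a positive, called difference, between 0.29 for COL4A3 and 3.33 for COL4A6.

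**Figure D3:**
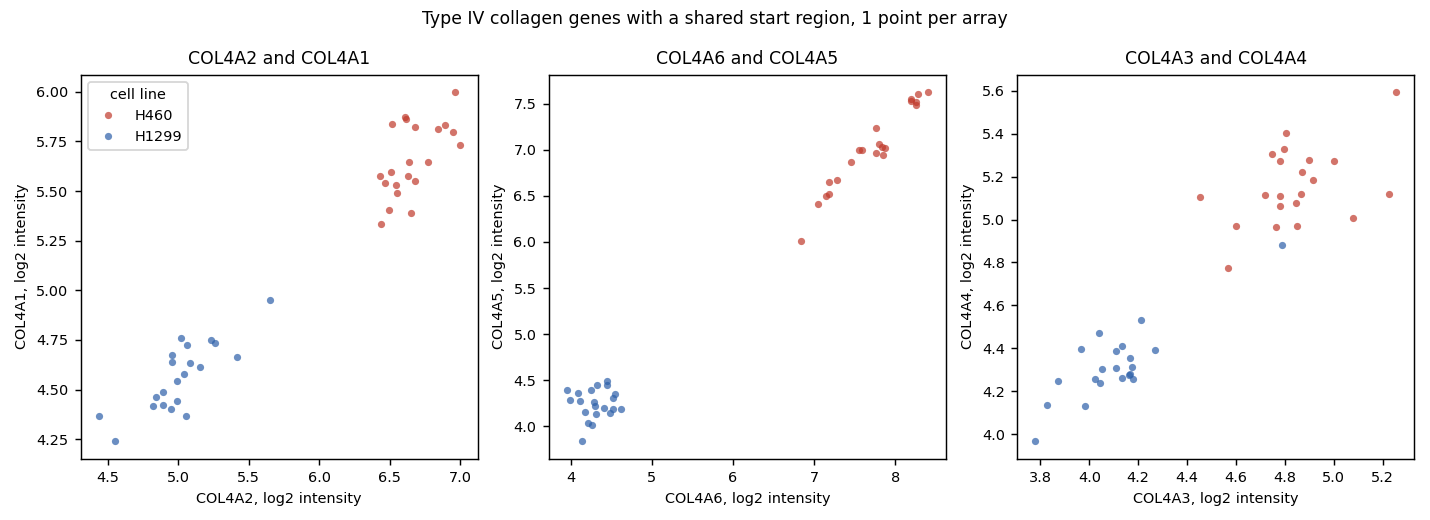
Log2 intensity of the 2 genes of each head-to-head pair of type IV collagen genes, 1 point per array over all time points, H460 in red and H1299 in blue. The H460 and H1299 points form separate clouds for the COL4A2 and COL4A1 pair and for the COL4A6 and COL4A5 pair, and come close to each other for COL4A3 and COL4A4. The COL4A6 and COL4A5 points of H460 run along a rising line, with the narrow arrays at 2 h at its low end.

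Over all 42 arrays and all times, COL4A6 ran from 6.83 to 8.40 on the 21 H460 arrays and from 3.95 to 4.61 on the 21 H1299 arrays, and COL4A5 from 6.01 to 7.63 in H460 and from 3.84 to 4.50 in H1299. The ranges of COL4A2 were 6.43 to 6.99 in H460 and 4.44 to 5.65 in H1299, and those of COL4A1 were 5.33 to 5.999 in H460 and 4.24 to 4.95 in H1299. In H460 the COL4A5 and COL4A6 pair thus covered a wider range than the COL4A1 and COL4A2 pair. The lowest H460 values of COL4A5 and COL4A6 were on a narrow array at 2 h and the highest on a wide array at 24 h. Neither gene was called at 2 h or 24 h in H460 with array width as a covariate.

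COL8A1, a short chain collagen of vessel walls and of the membrane under the corneal endothelium, was 5.77 at the lowest, 6.82 at the median and 7.34 at the highest in H460, against 3.45 at the lowest, 3.64 at the median and 3.96 at the highest in H1299. The 6 H460 arrays were widely scattered, with replicate 2 the lowest, but none came near an H1299 array. The difference was 3.02 ± 0.19 (8.12-fold, adjusted p = 2.88e-11). Its partner COL8A2 differed by 0.34 ± 0.12 (adjusted p = 0.022), which was 0.09 (adjusted p = 0.545) with array width as a covariate and was not called without any 1 of 4 arrays (H460 replicates 2 and 5, H1299 replicates 3 and 6). COL7A1, the collagen of the fibrils that anchor epithelium to the dermis, was 6.51 at the lowest, 6.90 at the median and 7.05 at the highest in H460, against 5.64 at the lowest, 5.81 at the median and 6.31 at the highest in H1299. Its lines did not overlap and differed by 1.02 ± 0.12 (adjusted p = 3.64e-07). COL3A1, a fibrillar collagen of vessels and hollow organs, was also apart, with a difference of 0.98 ± 0.10 (adjusted p = 5.4e-08).

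COL12A1 went the other way. It encodes a FACIT collagen bound to collagen I fibrils in tendon and muscle. Its level was 4.68 at the lowest, 4.89 at the median and 5.01 at the highest in H460, against 6.40 at the lowest, 6.90 at the median and 7.05 at the highest in H1299, with no overlap. The difference was -1.97 ± 0.11, which is 3.93-fold lower in H460 (adjusted p = 4.13e-12). The other members called lower in H460 were COL18A1 (-0.32 ± 0.12, adjusted p = 0.0302), whose end fragment is endostatin, and COL6A2 (-0.30 ± 0.08, adjusted p = 0.00504), a chain of the type VI filaments around cells. Of these 3 only COL12A1 was also called lower after quantile normalization. In all, 8 members were higher in H460 with no overlap of arrays, against 14.4% of all genes, and 1 was lower in that way, against 20.9% of all genes.

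By class, 7 of 11 fibrillar genes, 6 of 10 FACIT genes, 6 of 6 type IV genes, 2 of 3 short chain genes and 2 of 3 transmembrane genes were higher in H460. Over all genes 26.0% were called higher. With array width as a covariate 13 members of all classes were called higher, among them the 6 type IV genes. The genes of collagen I were called higher only without the covariate, and by small differences. COL1A1 differed by 0.46 ± 0.12 (limma, adjusted p = 0.00202) and COL1A2 by 0.39 ± 0.13 (adjusted p = 0.0157). Neither was called with array width as a covariate (0.18 and 0.07). COL6A1, a chain of collagen VI, differed by 0.12 ± 0.07 with a 95% interval of -0.04 to 0.28 (adjusted p = 0.18).

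The time course in H460 asks how collagen messages changed in the radiosensitive line after 2 Gy. The 4 genes with the widest line difference at 0 h, COL5A2, COL4A6, COL4A5 and COL8A1, were lower at 2 h and higher at 12 h than at 0 h, while 20 other members were higher at 2 h and 25 were lower at 12 h. By quadratic regression on hours 30 of 43 members changed (limma moderated F, adjusted p under 0.05), or 69.8%, against 41.9% of all genes. In 7 of them the largest change was a rise (20.5% of all genes) and in 23 a fall (21.4% of all genes). Under the width covariate 5 members were called, COL7A1, COL4A6, COL5A1, COL5A3 and COL6A2. No member was called at 2 h or at 12 h under that covariate.

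**Figure D4:**
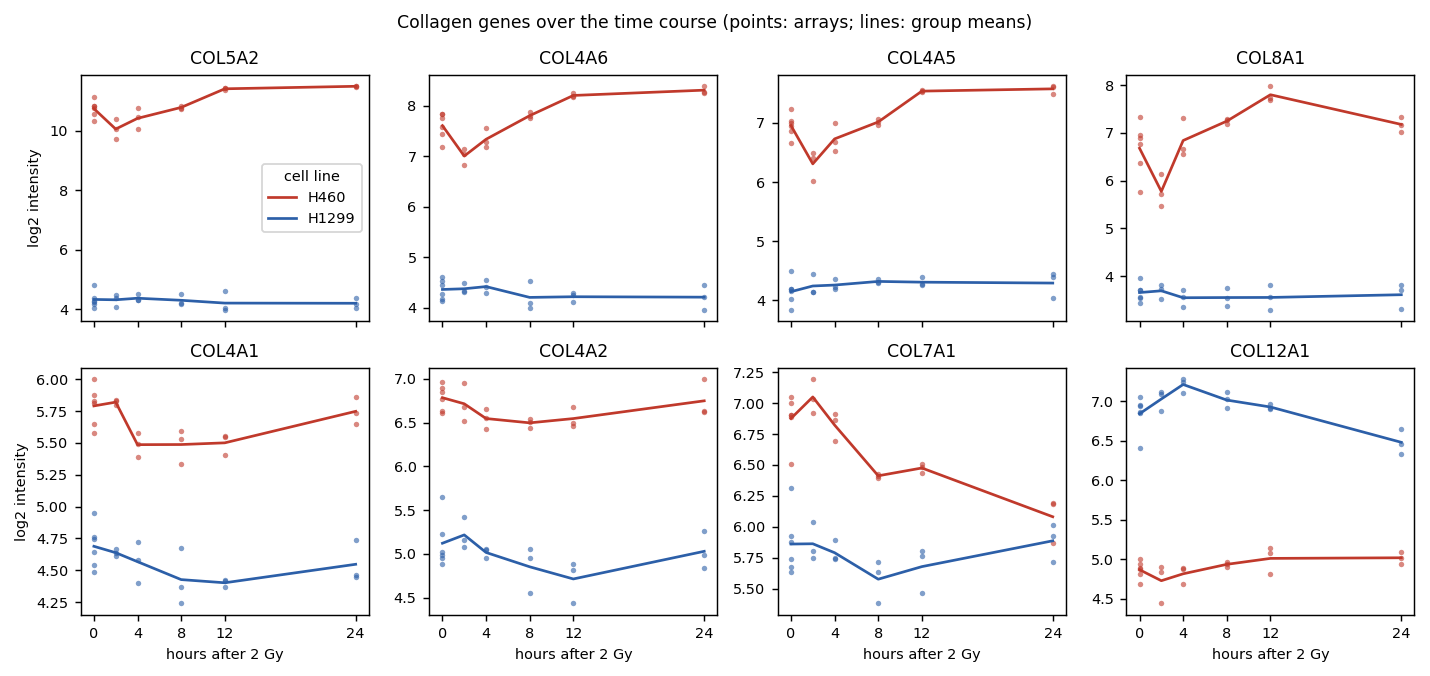
Log2 intensity of 8 collagen genes against hours after 2 Gy, with 1 point per array and lines through the group means, H460 in red and H1299 in blue; each panel has its own vertical scale. COL5A2, COL4A6, COL4A5 and COL8A1 dip at 2 h and then climb in H460 and are flat in H1299, COL7A1 falls in H460, and COL12A1 peaks at 4 h in H1299.

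COL5A2 in H460 averaged 10.75 at 0 h, 10.06 at 2 h, 10.42 at 4 h, 10.79 at 8 h, 11.41 at 12 h and 11.50 at 24 h. The arrays at 24 h gave 11.50, 11.52 and 11.48, and the highest array at 0 h gave 11.13. The 24 h and 12 h arrays were thus above every 0 h array. The changes against 0 h were -0.69 ± 0.15 at 2 h (adjusted p = 0.000892), 0.67 ± 0.15 at 12 h (adjusted p = 0.00152) and 0.75 ± 0.15 at 24 h (adjusted p = 0.000414). In H1299 the means lay between 4.19 and 4.36, and its change at 24 h was -0.13 ± 0.15 (adjusted p = 0.701).

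COL4A6 in H460 averaged 7.61 at 0 h, 7.01 at 2 h, 7.34 at 4 h, 7.81 at 8 h, 8.21 at 12 h and 8.31 at 24 h. Its 24 h arrays were at 8.40, 8.28 and 8.26, all above the 0 h arrays, and its 2 h arrays were at 7.04, 7.14 and 6.83, all below them. The change was -0.60 ± 0.12 at 2 h (adjusted p = 0.000722) and 0.70 ± 0.12 at 24 h (adjusted p = 0.000147).

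COL4A5, which shares the start region shown above, had H460 means of 6.95 at 0 h, 6.31 at 2 h, 6.73 at 4 h, 7.01 at 8 h, 7.54 at 12 h and 7.57 at 24 h. Its 2 h arrays (6.41, 6.50 and 6.01) lay below and its 24 h arrays (7.63, 7.61 and 7.49) above all 0 h arrays. The change was -0.65 ± 0.12 at 2 h (adjusted p = 0.000414), 0.58 ± 0.12 at 12 h (adjusted p = 0.00127) and 0.62 ± 0.12 at 24 h (adjusted p = 0.000577). COL4A1 and COL4A2 were not called at 24 h in H460, with changes of -0.04 (95% interval -0.27 to 0.18) and -0.04 (95% interval -0.28 to 0.21).

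COL8A1 in H460 averaged 6.68 at 0 h, 5.78 at 2 h, 6.84 at 4 h, 7.25 at 8 h, 7.80 at 12 h and 7.18 at 24 h. The 12 h arrays were at 7.68, 7.73 and 7.99, above all 0 h arrays, and the 24 h arrays at 7.02, 7.17 and 7.34, the highest of which was level with the highest 0 h array. The change was -0.90 ± 0.22 at 2 h (adjusted p = 0.00268), 1.12 ± 0.22 at 12 h (2.17-fold, adjusted p = 0.000664) and 0.50 ± 0.22 at 24 h (adjusted p = 0.0912). The mean of these 4 genes was 7.01 to 7.44 on the narrow arrays at 2 h and 8.70 to 8.80 on the wide arrays at 12 h. At 2 h, with width as a covariate, none of the 4 was called and the COL8A1 change turned its sign. With width as a covariate none of the 4 was called at 12 h or 24 h in H460: the 24 h values were 0.61 for COL5A2 (adjusted p = 0.0632), 0.46 for COL4A6 (adjusted p = 0.0686), 0.51 for COL4A5 (adjusted p = 0.0579) and -0.22 for COL8A1 (adjusted p = 0.688), the last with its sign turned. After quantile normalization, which gives all arrays the same width, the 24 h changes of COL5A2, COL4A6 and COL4A5 were 0.54, 0.57 and 0.50 (adjusted p = 0.00428, 0.00104 and 0.00988).

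COL7A1 fell in H460. It averaged 6.88 at 0 h, 7.05 at 2 h, 6.82 at 4 h, 6.41 at 8 h, 6.48 at 12 h and 6.08 at 24 h. The 24 h arrays were at 6.18, 5.87 and 6.20, below every 0 h array, of which replicate 6 was the lowest at 6.51. The 24 h change was -0.80 ± 0.11 (1.74-fold lower, adjusted p = 1.18e-05). It was -0.49 with array width as a covariate (adjusted p = 0.0149) and -0.90 after quantile normalization (adjusted p = 1.2e-05), and COL7A1 was the single member called at 24 h in H460 under the covariate.

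At 24 h in H460, 3 members were higher (COL5A2, COL4A6 and COL4A5) and 22 were lower than at 0 h, or 58.1% called, against 28.7% of all genes. Lower calls made up 51.2% of the members and 12.4% of all genes, and higher calls 6.98% and 16.2%. The median change was -0.35 over the members and -0.05 over all genes. The lower members were 7 of 10 FACIT genes, 5 of 11 fibrillar genes, 3 of 3 transmembrane genes, both multiplexins, COL6A2, COL7A1, COL8A2, COL26A1 and COL28A1. With array width as a covariate 1 member was called and the median was -0.02, while 8.41% of all genes were called; with quantile normalization 17 were called, 3 higher and 14 lower. Without replicate 2 at 24 h the count was 10, and with 0 h replicates 4 to 6 alone it was 13. In all, 3 members were higher with no overlap of arrays (15.7% of all genes) and 10 were lower in that way (10.5% of all genes).

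**Figure D5:**
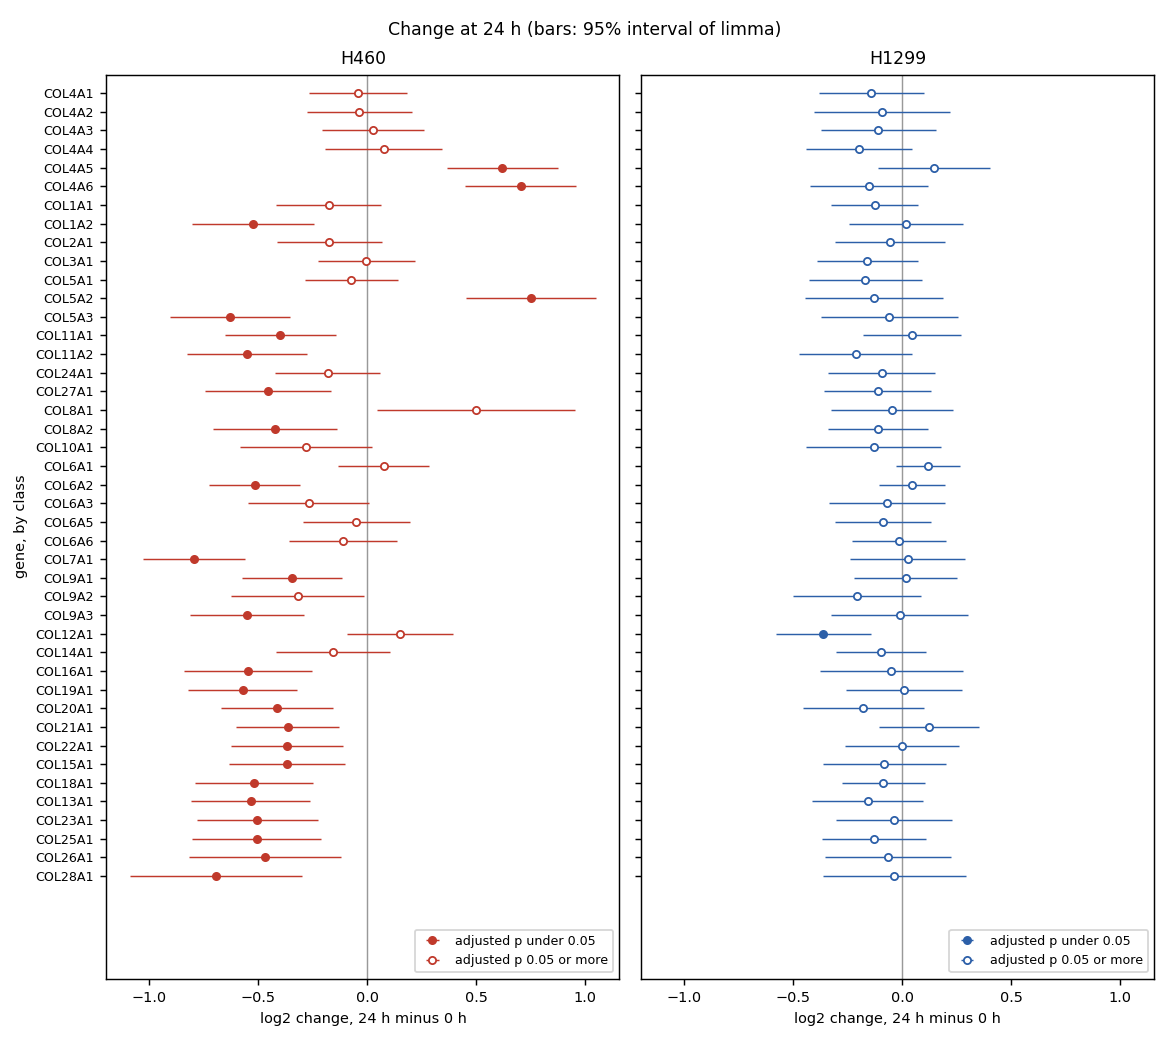
Log2 change at 24 h against 0 h of each collagen gene in H460 (left panel) and in H1299 (right panel), with 95% intervals of the limma fit; filled points have an adjusted p under 0.05. In H460, 3 filled points lie right of 0 and 22 left of it; in H1299 the single filled point is COL12A1, left of 0.

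Among the lower members, COL5A3, another chain gene of collagen V, had 12 h arrays in H460 at 5.98, 5.90 and 5.79 and 0 h arrays at 6.11 at the lowest, 6.58 at the median and 6.81 at the highest. Its 12 h change was -0.66 ± 0.13 (adjusted p = 0.000833) and its 24 h change -0.63 ± 0.13 (adjusted p = 0.001), opposite to COL5A2. COL9A3, a chain of the cartilage collagen IX, was at 6.39, 6.45 and 6.37 at 12 h and 6.55 at the lowest, 7.04 at the median and 7.32 at the highest at 0 h, a change of -0.60 ± 0.13 (adjusted p = 0.00131). COL8A2 was at 4.83, 5.21 and 4.80 at 12 h and 5.29 at the lowest, 5.63 at the median and 5.92 at the highest at 0 h, a change of -0.66 ± 0.14 (adjusted p = 0.00103). In all 3 genes the 12 h arrays lay below the 0 h arrays, and none of the 12 h changes was called with array width as a covariate (-0.24, -0.21 and -0.34).

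COL6A2 changed by -0.52 ± 0.10 at 24 h in H460 (adjusted p = 0.000502), with 24 h arrays at 6.62, 6.34 and 6.52 and 0 h arrays at 6.83 at the lowest, 6.999 at the median and 7.20 at the highest. COL6A1, which encodes another chain of the same collagen VI molecule, was at 7.67, 7.72 and 7.81 at 24 h and 7.56 at the lowest, 7.64 at the median and 7.79 at the highest at 0 h, a change of 0.07 ± 0.10 (adjusted p = 0.603). The groups of COL6A2 did not overlap and those of COL6A1 did. COL28A1, a collagen related to type VI, had the second largest fall of the members at 24 h, -0.70 ± 0.19 (adjusted p = 0.00857).

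Over the earlier times in H460, 20 members were higher and 4 lower at 2 h (40.4% of all genes called, 16.7% higher and 23.7% lower), and the 4 lower were COL5A2, COL4A6, COL4A5 and COL8A1. At 4 h 0 members were called (2.92% of all genes, 1.37% higher and 1.55% lower), with 10 at an unadjusted p under 0.05. At 8 h 0 were higher and 19 lower (16.9% of all genes called, 10.7% higher and 6.22% lower), and at 12 h 4 were higher and 25 lower (33.5% of all genes called, 16.7% higher and 16.8% lower). The 4 members higher at 12 h were the same 4 that were lower at 2 h. The median change over the members was 0.28 at 2 h, -0.09 at 4 h, -0.31 at 8 h and -0.38 at 12 h. Under the width covariate 0 members were called at 2, 8 and 12 h, with 4, 1 and 7 at an unadjusted p under 0.05, and 13 of the 20 higher members at 2 h turned their sign. No array of another group was as narrow as the 2 h arrays. Single arrays moved these counts: that at 2 h was 13 without 2 h replicate 3, that at 4 h was 4 without 0 h replicate 6 and 1 without 0 h replicate 3, 2 h replicate 3 or 4 h replicate 2, that at 8 h was 12 without 0 h replicate 5 and 4, 5 and 9 without 8 h replicates 1, 2 and 3, and that at 12 h was 18 without 12 h replicate 2.

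The same comparison in H1299 asks how the radioresistant line changed. By quadratic regression 17 members changed, with the largest change a rise in 1 and a fall in 16, or 39.5%, against 36.5% of all genes (19.9% rising and 16.6% falling). Under the width covariate 3 were called, COL12A1, COL4A5 and COL21A1, and the count lay between 8 and 11 without any 1 of 5 arrays (0 h replicates 2 and 4, 8 h replicate 3, 12 h replicates 2 and 3). At 2 h 0 members were called (13.8% of all genes, 5.88% higher and 7.93% lower; 3 members at an unadjusted p under 0.05). At 4 h 1 was higher (15.9% of all genes called, 10.0% higher and 5.83% lower), at 8 h 7 were lower (24.6% called, 9.54% lower) and at 12 h 12 were lower (29.7% called, 13.1% lower). At 24 h 1 member was lower and 0 were higher, against 11.7% of all genes called (8.53% higher and 3.21% lower), and the median change was -0.09, against 0.00 over all genes.

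COL12A1, the member with the highest level in H1299 relative to H460, was the one called both at 4 h and at 24 h. Its H1299 means were 6.84 at 0 h, 7.03 at 2 h, 7.21 at 4 h, 7.02 at 8 h, 6.93 at 12 h and 6.48 at 24 h. The 4 h arrays were at 7.25, 7.11 and 7.28, above all 0 h arrays, and the 24 h arrays at 6.46, 6.33 and 6.65. The 24 h arrays overlapped the 0 h group only through its replicate 2, at 6.40. The change was 0.37 ± 0.11 at 4 h (adjusted p = 0.0171) and -0.36 ± 0.11 at 24 h (adjusted p = 0.026), and the 24 h value was -0.47 (adjusted p = 6.06e-05) with array width as a covariate. The 24 h call was lost without 0 h replicate 3, 24 h replicate 1 or 24 h replicate 2, with values of -0.32, -0.35 and -0.29, and the 4 h call without 4 h replicate 1 or 3.

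COL5A3 was the member with the largest fall in H1299 at 8 h. Its 8 h arrays were at 5.69, 5.63 and 5.35 and its 0 h arrays at 5.79 at the lowest, 5.93 at the median and 6.67 at the highest, without overlap. The highest 0 h array was the narrow replicate 2. The change was -0.50 ± 0.15 (adjusted p = 0.018), and its H460 change at that time was -0.58 ± 0.13 (adjusted p = 0.00545). By 24 h its H1299 change was -0.06 ± 0.15 (adjusted p = 0.882). COL11A2 and COL5A1 also fell in H1299 at 12 h, with changes of -0.47 ± 0.12 and -0.45 ± 0.13 (adjusted p = 0.00575 and 0.00908). The 8 h count was 0 without 8 h replicate 3, and the 12 h count was 1 without 12 h replicate 2 and 7 without 0 h replicate 2 or 4 or 12 h replicate 3.

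The line difference asks which members changed by different amounts in H460 and H1299. At 24 h 8 members differed, or 18.6%, against 12.4% of all genes. The change was higher in H460 for 3 of them (7.75% of all genes): COL5A2 (0.88 ± 0.22, adjusted p = 0.00494), COL4A6 (0.86 ± 0.18, adjusted p = 0.00105) and COL12A1 (0.51 ± 0.16, adjusted p = 0.0264). It was lower in H460 for 5 (4.70% of all genes): COL7A1 (-0.82 ± 0.17, adjusted p = 0.000788), COL6A2 (-0.56 ± 0.12, adjusted p = 0.00087), COL19A1 (-0.58 ± 0.17, adjusted p = 0.0223), COL1A2 (-0.54 ± 0.18, adjusted p = 0.0451) and COL21A1 (-0.49 ± 0.15, adjusted p = 0.0302). COL7A1, for example, was at 6.18, 5.87 and 6.20 at 24 h in H460 and 6.02, 5.93 and 5.71 in H1299. At 0 h the lines did not overlap in this gene, and at 24 h the lowest H460 array was below 2 of the 3 H1299 arrays. COL5A2 and COL4A6 lay in the lower part of the scale on all H1299 arrays (COL4A6 between 3.95 and 4.61). Whether a change could show at such levels was not tested, as the values came without detection calls.

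With array width as a covariate 6 members differed at 24 h. COL5A2 (0.98), COL4A6 (0.82), COL6A2 (-0.46) and COL7A1 (-0.55) were among them with adjusted p of 0.00212, 0.00215, 0.00269 and 0.000814, and COL4A5 (0.56, adjusted p = 0.0292) and COL4A4 (0.49, adjusted p = 0.0171) joined them. Without replicate 6 at 0 h in H460 or replicate 2 at 0 h in H1299 the count was 16, and without any 1 of 4 arrays at 24 h (replicates 1 and 2 of each line) it was 4 or 5. COL12A1 was not called without replicate 1 or 3 at 24 h in H460 or replicate 1 or 2 at 24 h in H1299 (0.44 to 0.51), nor with array width as a covariate (0.39).

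The difference between the whole time courses was called for 10 members, or 23.3%, against 16.7% of all genes, with a rise as the largest difference in 4 (10.2% of all genes) and a fall in 6 (6.48%). Besides COL5A2, COL4A6, COL7A1, COL6A2, COL12A1, COL19A1 and COL21A1 these were COL8A1 (adjusted p = 0.0102), COL4A5 (adjusted p = 0.0348) and COL18A1 (adjusted p = 0.0368). For COL8A1 the largest difference was at 12 h, where the H460 change exceeded the H1299 change by 1.22. COL4A5 was not called without replicate 1 or 2 at 24 h in H460 or replicate 3 at 24 h in H1299 (adjusted p = 0.0616 to 0.115), and COL8A1 not with hours entered as a square root. The count was 10 with array width as a covariate and 21 without replicate 6 at 0 h in H460.

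Of 24 listed genes for the proteins that fold, modify and export collagen chains inside the cell, 23 were measured. At 24 h in H460, where most called collagen genes were lower, 16 of the 23 were higher, 0 were lower and 7 were not called, with a median change of 0.46, against -0.05 and 16.2% called higher over all genes. They included P3H2, a prolyl 3-hydroxylase active on type IV collagen (0.63 ± 0.09), PPIB, cyclophilin B (0.59 ± 0.09), FKBP10, a prolyl isomerase (0.57 ± 0.09), and P4HB, protein disulfide isomerase and a subunit of prolyl 4-hydroxylase (0.48 ± 0.07), with adjusted p between 2.14e-05 and 6.99e-05 (limma). Under the width covariate 6 were higher and 0 lower, with a median of 0.24, and with quantile normalization 12 and 0. Of the collagen genes only 1 was still called at 24 h in H460 under that covariate, with a median of -0.02. With quantile normalization 3 collagen genes were higher and 14 lower. In H1299 3 were higher and 0 lower (3 and 1 with either alternative), against 8.53% and 3.21% of all genes, with a median of 0.10. The 3 were SERPINH1, the collagen chaperone HSP47 (0.38 ± 0.06), and the lysyl hydroxylases PLOD2 (0.32 ± 0.08) and PLOD1 (0.24 ± 0.06). The change was larger in H460 for 8 of the 23 and smaller for 0, against 7.75% and 4.70% of all genes. The counts were 5 and 0 with array width as a covariate and 6 and 1 with quantile normalization. At 0 h 15 were higher in H460, P3H2 by 2.66 ± 0.08, and 3 were lower. Over all genes 26.0% were called higher and 29.1% lower at 0 h.

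Laminins, nidogens and other basement membrane partners of type IV collagen differed widely at 0 h. Of 16 listed genes 14 were measured, and 9 were higher and 4 lower in H460 at 0 h. Over all genes 26.0% were called higher and 29.1% lower. LAMA1, a laminin alpha chain, averaged 9.56 in H460 and 4.11 in H1299, a difference of 5.45 ± 0.11, and NID2, which links laminin to type IV collagen, was higher by 5.11 ± 0.10. LAMB1 was higher by 2.54 ± 0.08 and LAMC1 by 2.03 ± 0.08. At 24 h 10 were higher and 0 lower in H460, against 16.2% and 12.4% of all genes. The median was 0.41, against -0.05 over all genes. Among the higher were PXDN, which crosslinks type IV collagen (0.85 ± 0.10), LAMB2 (0.77 ± 0.13), LAMA1 (0.65 ± 0.10) and LAMB1 (0.57 ± 0.09). In H1299 6 were higher and 0 lower (median 0.24, against 0.00 over all genes, of which 8.53% were called higher), among them LAMB3 (0.67 ± 0.10), LAMA2 (0.59 ± 0.08), LAMB2 (0.44 ± 0.08) and LAMB1 (0.32 ± 0.07). With array width as a covariate the counts were 5 higher in H460 and 7 higher in H1299, with 0 lower in both. The 24 h change of LAMA2 was lower in H460 than in H1299 (-0.82 ± 0.14, limma, adjusted p = 8.82e-05), and that of PXDN was higher (0.56 ± 0.12, adjusted p = 0.000875).

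Of 14 genes of extracellular collagen maturation and crosslinking, all measured, 4 were higher and 6 lower in H460 at 0 h, against 26.0% of all genes called higher and 29.1% lower. With array width as a covariate 0 were higher and 6 lower. ADAMTS3, a procollagen protease, differed by -2.37 and the crosslinking enzyme LOX by -2.07 (log2). At 24 h 0 were higher and 3 lower in H460 (LOXL3, PCOLCE and ADAMTS14), against 16.2% of all genes called higher and 12.4% lower. With array width as a covariate these counts were 0 and 0. In H1299 0 changed (1 at an unadjusted p under 0.05), against 8.53% of all genes called higher and 3.21% lower. Of the 9 collagen receptors measured, 3 were higher and 4 lower in H460 at 0 h (1 and 3 with array width as a covariate), beside the same 26.0% and 29.1% of all genes. ITGA2, the alpha chain of the collagen receptor integrin on epithelial cells, differed by -2.26 (log2) at 0 h and rose at 24 h in both lines, by 0.78 ± 0.15 in H460 and 0.65 ± 0.08 in H1299. In H460 2 of the 9 were higher and 3 lower at 24 h (0 and 0 with array width as a covariate; 16.2% and 12.4% of all genes), and in H1299 3 were higher and 0 lower (8.53% and 3.21% of all genes). The difference between the lines at 24 h was called for 0 of the 9 receptors (limma, 0 at an unadjusted p under 0.05), against 12.4% of all genes.

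Other cell types' markers were examined beside the 24 h changes. Of the 7 fibroblast genes 2 were higher and 1 lower at 24 h in H460, against 16.2% of all genes called higher and 12.4% lower. In H1299 0 changed (limma, 1 at an unadjusted p under 0.05), against 8.53% of all genes called higher and 3.21% lower. LUM, the proteoglycan lumican, averaged 4.66 in the 24 h arrays and 3.48 in the 0 h arrays of H460 (adjusted p = 4.67e-05, limma). In H1299 LUM averaged 2.53 in the 24 h arrays and 2.47 in the 0 h arrays. The growth factor receptor gene PDGFRB changed by 0.36 in H460 (adjusted p = 0.0264) and THY1, which encodes a surface glycoprotein, by -0.36 (adjusted p = 0.0311), and the other 4 fibroblast genes were not called. With array width as a covariate 0 of the 7 were called in H460 (2 at an unadjusted p under 0.05), with 0.58 for LUM (adjusted p = 0.082). Of the 4 endothelial genes KDR was lower at 24 h in H460 (-0.35, adjusted p = 0.0489, and -0.14, adjusted p = 0.727, with the covariate), and of the 4 leukocyte genes CD14 was higher, at 6.52 in the 24 h arrays and 5.93 in the 0 h arrays (0.59, adjusted p = 0.00208, and 0.87, adjusted p = 0.00126, with the covariate). The 24 h change of CD14 was higher in H460 than in H1299 by 0.66 (adjusted p = 0.0285). In H1299 0 genes of the endothelial and leukocyte lists changed (limma, 0 at an unadjusted p under 0.05). The shares of all genes given above for each line apply to these short lists as well. The part of other cells in the collagen changes was not tested.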

How the data were processed

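Messenger RNA from 42 samples was measured on 1-colour arrays with biotin-labelled target from 100 ng of total RNA, per the labels' protocols. The deposited values are log2 intensities per probe set, summarised by the authors; their software, background correction and normalization are not given in the sources used here. The table has 32321 rows, of which 11775 have no entry in the probe table and 1388 carry several symbols. The other 19158 carry 1 symbol, and after 754 further rows of a gene were dropped, 18404 genes were tested. Array medians lay between 5.97 and 6.18, and no 2 arrays were identical (0 pairs). Precision is limited by the number of arrays.

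Samples were grouped by line and hours from the labels. The tests were fitted with limma 3.58.1 (lmFit, eBayes with trend) in R 4.3.3 on all genes, two-sided, with Benjamini-Hochberg adjusted p under 0.05 as the threshold: H460 minus H1299 at 0 h, linear and squared hours per line (moderated F), each time against 0 h in a fit with 1 mean per time point, and the same changes between the lines. The time-course direction is the sign of the largest change of a group mean from 0 h. The scripts were tested on simulated data. Alternatives were quantile normalization, median centring, array interquartile range as a covariate, a replicate block, other eBayes settings, a filter on dim genes, other forms of time, subsets of the 0 h arrays and each array left out in turn.

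Members and gene lists were chosen with earlier results of these data known. Values per array were given for up to 8 members with a 0 h difference of at least 1 and for up to 8 with the largest called time-course change of at least 0.5 (log2), and up to 4 genes of each other list by smallest p; further members were named after their values were seen. Promoter sequences are from RefSeq, GRCh38.p14. Some listed genes are not reported here.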

Additional observations from a re-analysis of the deposited data

Results flagged for a closer look

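At 0 h each line had 6 arrays, and 86 sets of 6 (43 genes in 2 lines) were examined for an array set apart from the other 5 by most of the range. Chance alone would mark about 1 in 20 of such sets; 16 were marked, and genes on one array are not independent. In H1299 they all fell on replicate 2, the array with a narrow spread of values: it was the highest array for COL1A1 (6.63), COL1A2 (5.41), COL4A3 (4.79), COL4A4 (4.88), COL6A3 (4.26), COL11A2 (6.51), COL19A1 (4.55), COL20A1 (6.32), COL22A1 (5.76), COL25A1 (4.57), COL26A1 (5.96) and COL27A1 (6.85), and the lowest for COL12A1 (6.40). In H460 they fell on replicate 6, the widest 0 h array of that line, as the lowest array for COL5A1 (5.63), COL7A1 (6.51) and COL26A1 (5.12). The part of array width in these values was not tested.

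The change over time differed between the lines, by a test of the difference itself, for 11 members. At 24 h the H460 change exceeded the H1299 change by 0.88 for COL5A2, 0.86 for COL4A6 and 0.51 for COL12A1 (log2), and the difference was -0.82 for COL7A1, -0.58 for COL19A1, -0.56 for COL6A2, -0.54 for COL1A2 and -0.49 for COL21A1. For COL8A1, COL4A5 and COL18A1 the time courses differed, with adjusted p of 0.0102, 0.0348 and 0.0368 (limma), and the line differences of their 24 h changes were not called.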

How the results depend on the processing

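Every member called at 0 h or for the 24 h line difference kept its direction under quantile normalization, median centring and array interquartile range as a covariate. With that covariate COL26A1, of the 22 members lower at 24 h in H460, turned its direction, as did 6 of the 25 lower at 12 h, COL28A1 of the 19 lower at 8 h, and 13 of the 20 higher and COL8A1 of the 4 lower at 2 h in H460, and COL5A3 of the 12 lower at 12 h in H1299. Under the same covariate the calls among the 43 members were 17 at 0 h, 5 and 3 for the time courses of H460 and H1299, 0, 2, 0, 0 and 1 at 2, 4, 8, 12 and 24 h in H460, and 5, 1 and 2 at 2, 8 and 12 h in H1299. Quantile normalization gave 11 for the H1299 time course and 11 and 18 at 8 and 12 h in H460. For the H1299 time course, 0 h replicates 4 to 6 alone gave 10, hours as a square root 5, leaving out narrow arrays 8 and 1 mean per time point 7; that last setting gave 23 for the time-course difference. The 0 h replicates 4 to 6 alone gave 13 at 24 h in H460, and 0 h replicates 1 to 3 alone gave 5 for the 24 h line difference. At 24 h in H1299 the count was 0 with the replicate block, with 0 h replicates 1 to 3 or with the 0 h and 24 h arrays alone (limma; 2, 2 and 1 at an unadjusted p under 0.05). Replicate numbers did not pair the arrays: over 90 pairs the correlation of deviations ran from -0.37 to 0.20, above 0.1 in 18. With the block the counts were 31 at 0 h, 33 and 13 for the time courses of H460 and H1299, 26 and 0 at 24 h, and 8 for the 24 h line difference. With each array left out in turn, the counts ranged from 26 to 36 at 0 h, 28 to 36 and 8 to 19 for the H460 and H1299 time courses, 8 to 21 for their difference, 13 to 27, 0 to 4, 4 to 27, 18 to 30 and 10 to 27 at 2, 4, 8, 12 and 24 h in H460, 0 to 2, 0 to 1, 0 to 9, 1 to 16 and 0 to 1 at those times in H1299, and 4 to 16 for the 24 h line difference. At 2 h in H1299 the count was 2 without 0 h replicate 2 and 1 without 0 h replicate 1 or 2 h replicate 1. Of the single-gene results, 1907 kept their call status with an array left out, 20 gained a call and 53 lost one. Under other settings 829 kept it, 19 gained a call and 54 lost one. Direction was not compared for time courses or for results called in neither fit. Without detection calls, no limit from signal over background could be set.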
